A study of Mus musculus with 6 samples.

Results

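The genes described here encode anti-apoptotic proteins of the BCL2 family: Mcl1, Bcl2, Bcl2l2 (BCL-W) and the A1 genes Bcl2a1a, Bcl2a1b and Bcl2a1d. Every probe set of an Affymetrix array whose annotated symbols include 1 of these 6 genes was taken, which gave 18 of 45037 non-control probe sets. Mcl1 had 6 of them, Bcl2 had 5, Bcl2l2 had 4 and the A1 genes shared 3. The arrays carried RNA of peripheral blood neutrophils from 3 wild type mice and 3 phd3 null mice (null samples in what follows), all on a C57 background, after 4 h of culture at 3% oxygen. The deletion removes the oxygen-dependent prolyl hydroxylase PHD3, whose gene is now named Egln3. Each array was taken as 1 mouse, since the cells came by negative magnetic selection from individual animals. How the null allele was made and the age of the mice are not given in the sources used here. All 6 samples were hypoxic, so the values give genotype differences within hypoxia and no response to oxygen.

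BCL2 proteins with an anti-apoptotic role hold BAX and BAK, the proteins that open the outer mitochondrial membrane, in check, and they bind the BH3-only proteins that start apoptosis. Neutrophils are short-lived cells that depend on MCL1, a protein with rapid turnover, and on A1, whose gene is induced by NF-kB and by growth factors. BCL2 itself is typical of lymphocytes and falls to low levels as neutrophils mature. Hypoxia prolongs neutrophil survival, and the design places PHD3 in that setting.

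Each array had a median signal between 49.4 and 64.2, in the linear units of the MAS5 algorithm. The targeted gene was low in every null sample. Egln3 read 87.2, 29.6 and 73.5 over null samples 1 to 3 against 2088, 1733.9 and 327 over wild type samples 1 to 3. The 2 arrays numbered 3 stood apart, where the median correlation with all remaining arrays was 0.729 (null) and 0.776 (wild type), and 0.821 to 0.847 elsewhere. The summed signal of 9 named neutrophil markers ran from 25599 to 49531 in null and from 42539 to 56258 in wild type samples. The lowest sum was in null sample 3, where the neutrophil chemokine receptor gene Cxcr2 was at 25.6. S100a8 (11102.8 to 25479.7) and S100a9 (11843.6 to 24367.2) made up most of each sum. Csf3r came next at 1281.9 to 5118.4, below the monocyte marker Csf1r (3537.6 to 11088.3) on every array. The other neutrophil markers read 25.6 to 1506.2. Markers of other blood cells were also present. The summed signal of 7 B cell markers was 3531 (null) and 2695 (wild type) on the arrays numbered 3 and 309.8 to 538.1 on the others. For 5 monocyte markers it ran from 5383 to 15189 in null and from 6194 to 14496 in wild type samples, with the lowest value of each genotype on its array numbered 3. For 8 natural killer (NK) cell markers it ran from 631.3 to 3338 in null and from 1536 to 7293 in wild type samples. In such bulk samples, fewer cells of a type and less RNA per cell cannot be told apart.

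Mcl1 was bright on every array, and no difference between the genotypes passed the test. Its 6 probe sets had signals from 1220.1 to 10944.1, and their genotype differences ran from -0.19 to 0.16 in log2(signal + 16), 3 of them above 0 and 3 below. The brightest, 1448503_at, read 8962.4, 7614.7 and 6429.3 over null samples 1 to 3 against 10944.1, 6590.6 and 5341.1 over wild type samples 1 to 3. The wild type samples held both the highest and the lowest of these values, and the null samples lay between them. The means were 7669 ± 1267 for null and 7625 ± 2941 for wild type samples (SD, n = 3), a log2 fold change, null minus wild type, of 0.06 with a standard error (SE) of 0.40. The 95% interval of that difference, -0.83 to 0.96, still covers changes of nearly 1 log2 unit either way. In the fit with the sample number as a block it narrowed to -0.40 to 0.52.

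The other Mcl1 probe sets showed the same overlap of genotypes. Probe set 1437527_x_at read 6360.3, 7562.5 and 5770.1 over null samples 1 to 3 against 7643.9, 5817.6 and 7055.5 over wild type samples 1 to 3, a log2 fold change of -0.06 (SE 0.35). Probe set 1456243_x_at read 5880.5, 6858 and 5634.5 over null samples 1 to 3 against 6829.9, 5181.3 and 5876.1 over wild type samples 1 to 3, a log2 fold change of 0.04 (SE 0.34). In both, wild type sample 1 was above null sample 1 and wild type sample 2 was below null sample 2. Probe set 1456381_x_at followed that order, reading 5383.3, 6213.3 and 4797 over null samples 1 to 3 against 6682.1, 4691.7 and 5329.2 over wild type samples 1 to 3, with a log2 fold change of -0.02 (SE 0.35). Probe set 1416880_at read 4059.2, 4883.5 and 4740.6 over null samples 1 to 3 against 4384.8, 3486.8 and 4391.5 over wild type samples 1 to 3. It gave the highest Mcl1 difference, 0.16 (SE 0.33), which was 0.05 without wild type sample 2. Probe set 1416881_at gave the lowest, -0.19 (SE 0.43), and read lowest on the 2 arrays numbered 3. It read 2836.6, 2759.6 and 1220.1 over null samples 1 to 3 against 3441.2, 2329.7 and 1769.2 over wild type samples 1 to 3. None of the 6 Mcl1 probe sets had groups that did not overlap, where 7.2% of all 22519 tested probe sets did. The signs of 1437527_x_at and 1456381_x_at turned with quantile normalization, to 0.08 and 0.10.

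**Figure D1:**
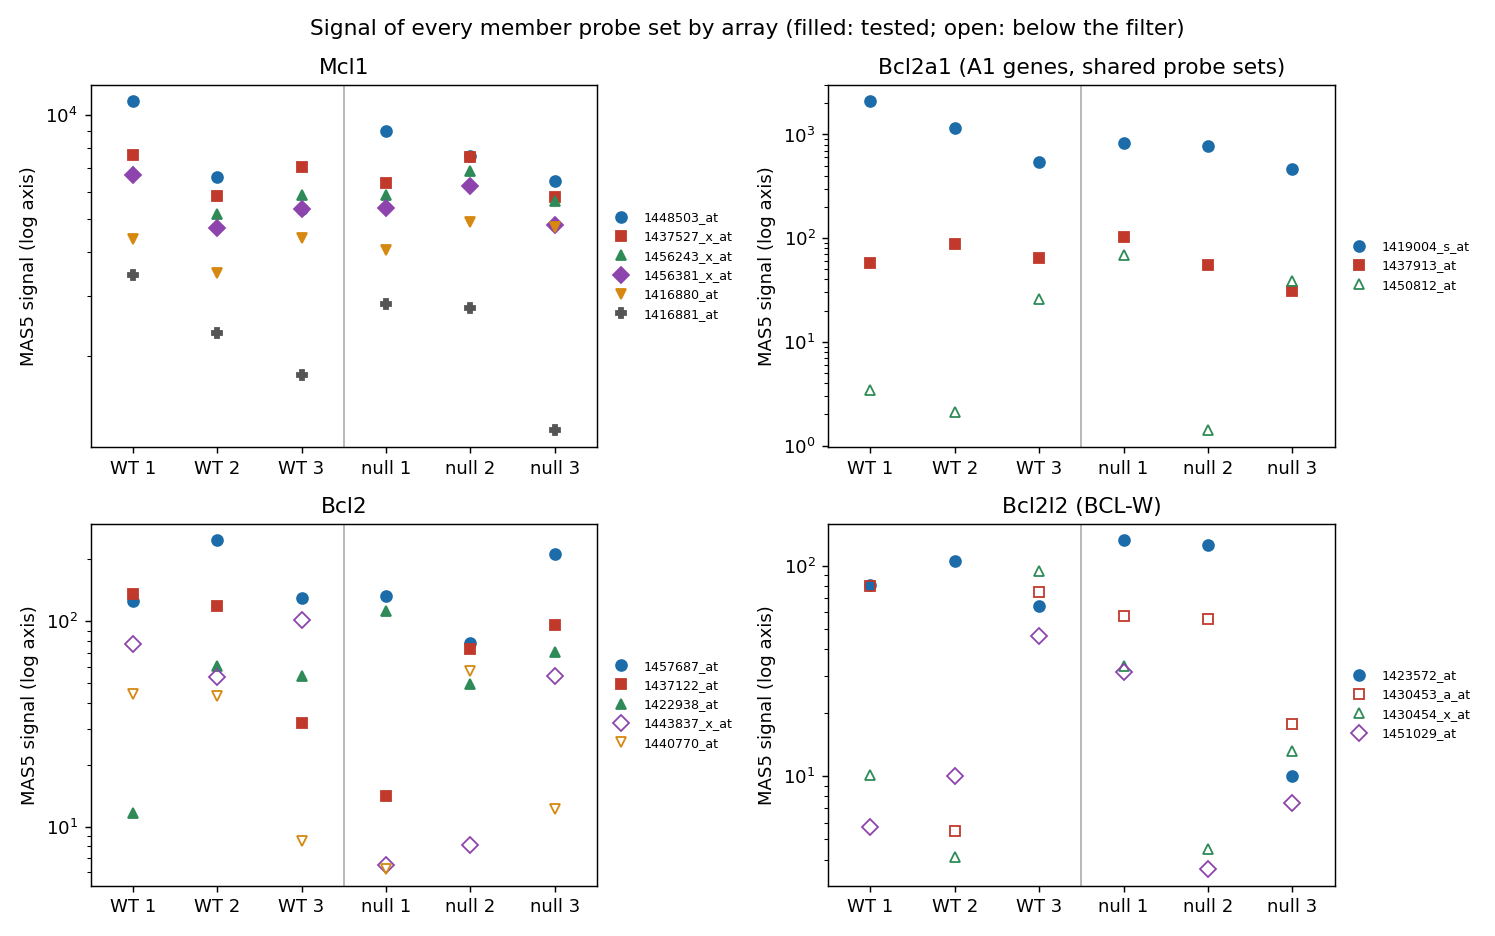
MAS5 signal (log axis) of the 18 probe sets of Mcl1, the A1 genes, Bcl2 and Bcl2l2 on each array, wild type (WT) samples on the left and null samples on the right of each panel. Filled symbols are probe sets that were tested and open symbols those below the filter on low values. The lowest Mcl1 signal is 1220.1, and the A1 probe set 1419004_s_at is highest in wild type sample 1.

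Within pairs of samples with the same number, Mcl1 moved both ways. All 6 Mcl1 probe sets were lower in null in pair 1, by log2 differences between -0.31 and -0.11, and all 6 were higher in pair 2, by 0.21 to 0.48. In pair 3 the differences ran from -0.53 for 1416881_at to 0.27 for 1448503_at, with 4 of them below 0. The median of the 6 probe sets, each centred on its own mean over arrays, was highest in wild type sample 1 (0.24) and null sample 2 (0.18) and lowest in wild type sample 2 (-0.20) and null sample 3 (-0.20). Wild type sample 3 and null sample 1 lay close to the mean, at -0.04 and -0.03. Both extremes of this order thus held a sample of each genotype.

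Of all pairs of Mcl1 probe sets, 1416880_at and 1416881_at were the farthest apart, and they are described for that reason. Both carry the same target accession in the annotation. On the log2 scale, 1416881_at minus 1416880_at was -1.94 in null sample 3 and -1.30 in wild type sample 3. On the other 4 arrays this difference was between -0.82 and -0.35, so the gap was widest on the arrays numbered 3. The 3 probe sets with the suffix _x_at, which Affymetrix gives to sets whose probes can match other transcripts, differed from each other by root mean square distances of only 0.06 to 0.07 log2 units over the 6 arrays. By the same measure 1416880_at and 1416881_at were 0.55 apart. The signal ratio of the 3' to the 5' control probe set of Gapdh was 0.773 (null) and 0.659 (wild type) on the arrays numbered 3 and 0.726 to 0.805 on the others, so the null array lay within that range and the wild type array below it. For the actin control the ratio was 1.887 (null) and 1.718 (wild type) on the arrays numbered 3, both within the 1.634 to 2.091 of the others. The B cell markers were higher on both arrays numbered 3, with the sums given above. The part of the control ratios or of the B cells in the gap was not tested.

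**Figure D2:**
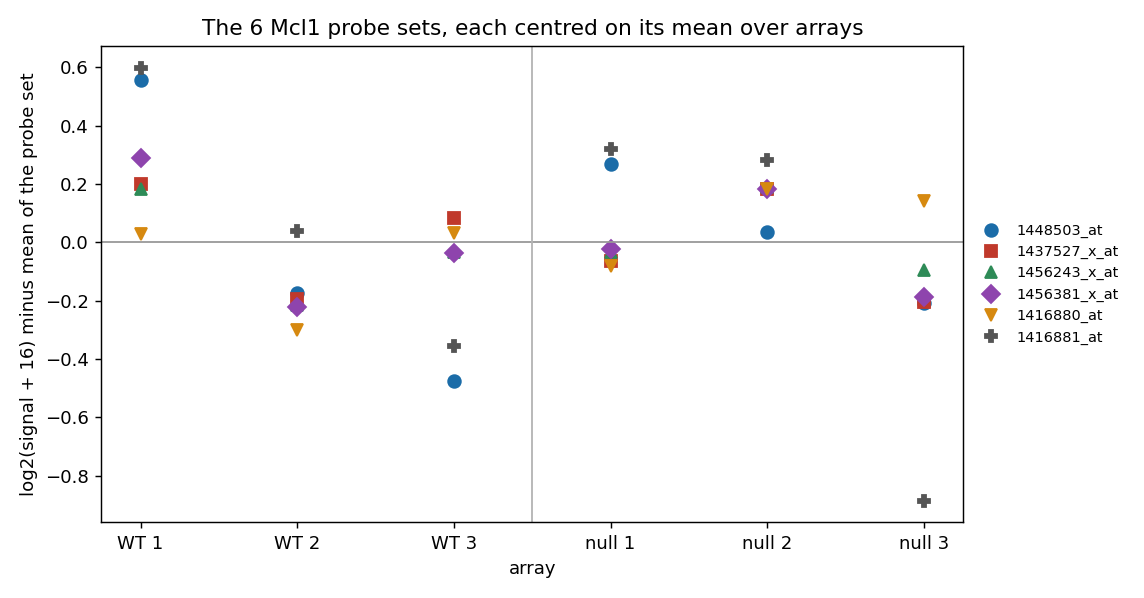
The 6 Mcl1 probe sets by array, each as log2(signal + 16) minus its own mean over the 6 arrays. The probe sets spread most in null sample 3, where 1416881_at is at -0.89 and 1416880_at at 0.14.

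The A1 genes are near copies of each other, and the array could not tell them apart. Of their 3 probe sets, 2 are annotated to Bcl2a1a, Bcl2a1b and Bcl2a1d together, and 1 to these and Bcl2a1c, so every A1 value is for the family. The copies also resemble each other outside their transcripts. The 250 bases before each RefSeq start (GRCm38.p6, chromosome 9) are printed to show this, 5' to 3' on the strand of the gene, with matches to the ETS core gaggaag and to the hypoxia response cores acgtg and gcgtg, on either strand, in capitals.
Bcl2a1a chr9:88956670-88956919 (+): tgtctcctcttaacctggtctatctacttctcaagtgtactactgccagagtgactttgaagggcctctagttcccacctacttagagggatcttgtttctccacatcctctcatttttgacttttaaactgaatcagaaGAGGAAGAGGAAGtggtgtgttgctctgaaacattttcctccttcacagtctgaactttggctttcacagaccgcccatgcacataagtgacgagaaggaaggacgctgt
Bcl2a1b chr9:89199023-89199272 (+): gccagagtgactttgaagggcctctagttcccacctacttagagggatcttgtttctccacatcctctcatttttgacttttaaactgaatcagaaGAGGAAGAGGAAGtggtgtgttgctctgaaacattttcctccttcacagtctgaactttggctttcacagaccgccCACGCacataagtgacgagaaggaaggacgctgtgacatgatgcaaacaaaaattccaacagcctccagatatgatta
Bcl2a1d chr9:88731851-88732100 (-): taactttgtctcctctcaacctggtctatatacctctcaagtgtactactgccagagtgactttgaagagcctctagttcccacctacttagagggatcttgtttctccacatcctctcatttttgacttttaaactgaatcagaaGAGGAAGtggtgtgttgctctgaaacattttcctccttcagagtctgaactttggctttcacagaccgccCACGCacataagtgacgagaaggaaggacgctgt
Aligned where they overlap, the windows of Bcl2a1a and Bcl2a1b were identical at 205 of 206 bases, those of Bcl2a1b and Bcl2a1d at 198 of 200, and those of Bcl2a1a and Bcl2a1d at 238 of 244. Gaps are left out of these counts. They took 0 columns in the first alignment and 6 in each alignment with Bcl2a1d. The ETS core, the binding motif of PU.1 and related factors, matched 2 times before Bcl2a1a, 2 times before Bcl2a1b, overlapping by 1 base in each, and 1 time before Bcl2a1d. It also matched 1 time before Bcl2 and 1 time before Bcl2l2, and not before Mcl1. This core was found in 10.6% of 32851 such windows of all genes. The hypoxia response core gcgtg, read on the opposite strand as cacgc, matched in Bcl2a1b and Bcl2a1d and not in Bcl2a1a, against 28.2% of all windows. The core acgtg (16.6% of all windows), the NF-kB motif (7.25%) and the STAT motif ttcnnngaa (7.02%) had no match in the A1 windows, nor did any of these 3 in the windows of Mcl1, Bcl2 and Bcl2l2. These matches describe letters in the windows and no binding.

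Of the 3 A1 probe sets, 1419004_s_at alone was lower in null samples in every pair, and it did not pass the test. It read 834.9, 776.6 and 461.5 over null samples 1 to 3 against 2084.4, 1163.4 and 538.8 over wild type samples 1 to 3. The groups overlapped through wild type sample 3, which lay below null samples 1 and 2. In order, wild type samples 1 and 2 came first, then null samples 1 and 2, then wild type sample 3 and null sample 3. The means were 691 ± 201 for null and 1262 ± 778 for wild type samples (SD, n = 3), and the log2 fold change was -0.70 (SE 0.48, 95% interval -1.78 to 0.38). Limma gave an unadjusted p = 0.180 and an adjusted p = 0.9997 over all probe sets. The differences within pairs 1 to 3 were -1.30, -0.57 and -0.22, and 13.5% of all tested probe sets were lower in all 3 pairs. With the sample number as a block, limma gave the same fold change with an SE of 0.23, an unadjusted p = 0.0103 and an adjusted p = 0.868, so the call was unchanged. In that fit 5.4% of all tested probe sets had an unadjusted p under 0.05, 3.01% being lower.

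The size of the A1 difference rested on single arrays. It was -0.24 without wild type sample 1, the brightest, and -1.20 without wild type sample 3. Without both arrays numbered 3 it was -0.94 (SE 0.31) and the remaining groups of 2 did not overlap. The same was seen in 32.8% of all tested probe sets, 16.8% being lower in null. Monocytes and NK cells can also express A1. The summed monocyte signal was lowest on the same 2 arrays as A1, those numbered 3. It was highest in null sample 1 (15189) and was 14471 in wild type sample 1, where A1 was highest. Csf1r, Fn1 and Cd68 were each lowest on the arrays numbered 3 as well. Ccr2 and Cx3cr1 were not, reading 284.2 and 297.8 in wild type sample 1 against 385.4 and 361.1 in wild type sample 3. For NK cells, 8 of 8 markers had a lower mean log2 signal in null samples. The NK sum was highest in wild type sample 2 (7293) and not in wild type sample 1 (1536), where A1 was highest. Some neutrophil markers were also lowest on the arrays numbered 3, namely Csf3r (1281.9 null, 1745.7 wild type), Cxcr2 (25.6, 227.0), Itgam (297.7, 602.0) and Ngp. S100a8, S100a9, Mmp9, Camp and Ltf did not have their 2 lowest values there. The part of these cell types in the A1 difference was not tested.

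The other A1 probe sets were dim. Probe set 1437913_at read 101.6, 55.2 and 31.2 over null samples 1 to 3 against 57.7, 88.4 and 63.8 over wild type samples 1 to 3, a log2 fold change of -0.21 (SE 0.47). Here null held both the highest and the lowest sample, and the difference was lower in 2 of 3 pairs and turned to 0.06 without the arrays numbered 3. Probe set 1450812_at, which also names Bcl2a1c, was below the filter on low values, reading 68.6, 1.4 and 39 over null samples 1 to 3 against 3.4, 2.1 and 26.2 over wild type samples 1 to 3. Its log2 difference was 0.82, not tested, and it was higher in null samples in 2 of 3 pairs, opposite to the other A1 probe sets. The lower A1 level in null samples thus rested on 1419004_s_at, the brightest A1 probe set.

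**Figure D3:**
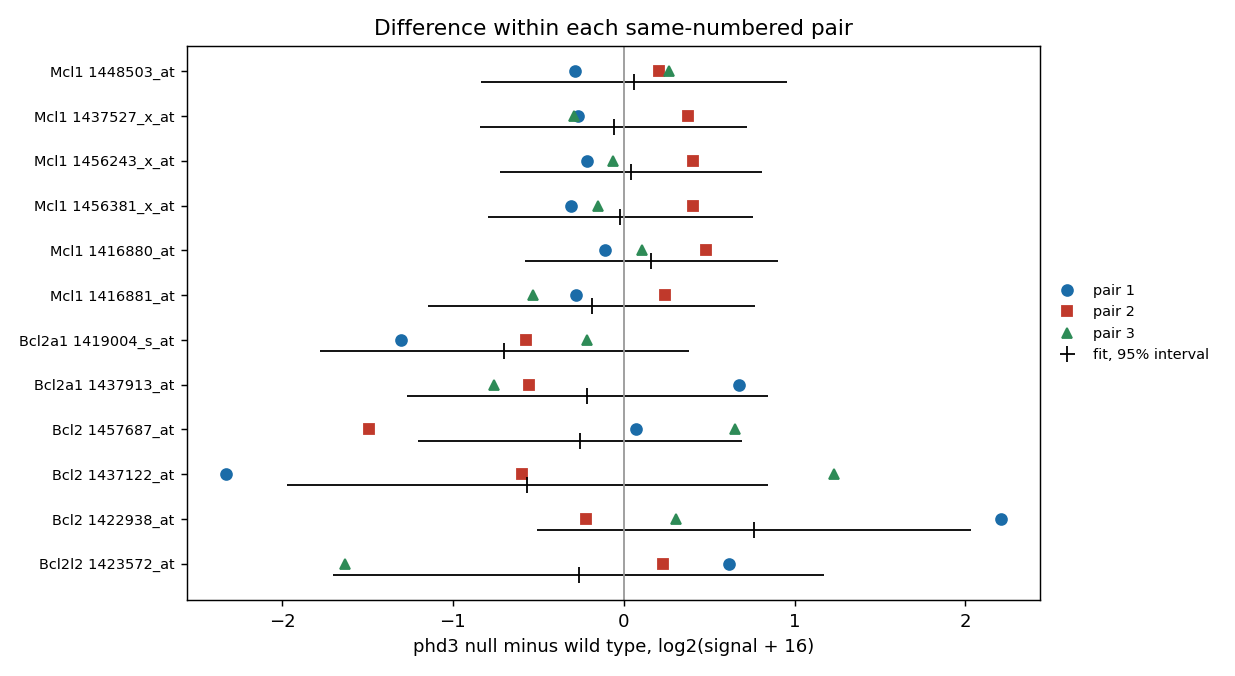
Difference in log2(signal + 16), null minus wild type, within each same-numbered pair for the 12 tested probe sets of Mcl1, the A1 genes (Bcl2a1), Bcl2 and Bcl2l2. Black ticks with lines are the limma fold change and its 95% interval without the block. For 1419004_s_at all 3 pairs lie below 0, at -1.30, -0.57 and -0.22, and its interval crosses 0.

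Bcl2 signals lay between 6.2 and 248.3. Of its 5 probe sets, 1422938_at alone had a higher mean log2 signal in null samples, and the others were lower. The pairs gave mixed signs for every Bcl2 probe set but 1443837_x_at. The brightest, 1457687_at, read 132.4, 78 and 213.6 over null samples 1 to 3 against 125.1, 248.3 and 130 over wild type samples 1 to 3. The genotypes overlapped, with the highest value in wild type sample 2 and the next in null sample 3, and the log2 fold change was -0.26 (SE 0.42), or -0.71 without pair 3. Wild type sample 2 and null sample 3 were also the arrays with the highest marker sum of NK cells (7293) and of B cells (3531), respectively. In wild type sample 3 the B cell sum was 2695, and 1457687_at read 130. The part of these cells in the Bcl2 signal was not tested. Probe set 1437122_at read 14.1, 73.5 and 96 over null samples 1 to 3 against 135.2, 119.3 and 31.8 over wild type samples 1 to 3, a log2 fold change of -0.57 (SE 0.63). Its differences within pairs 1 to 3 were -2.33, -0.60 and 1.23, so the pairs opposed each other, and without pair 3 the fold change was -1.46 (SE 0.58, unadjusted p = 0.0244 and adjusted p = 0.978 in limma). Probe set 1422938_at moved the other way, reading 111.6, 49.5 and 71 over null samples 1 to 3 against 11.6, 60.4 and 54.4 over wild type samples 1 to 3, with a log2 fold change of 0.76 (SE 0.57) that was 0.29 without wild type sample 1. Both probe sets owed most of their difference to sample pair 1, where one was low in null and the other was low in wild type.

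The remaining 2 Bcl2 probe sets were below the filter and were not tested. Probe set 1443837_x_at read 6.5, 8.1 and 54.1 over null samples 1 to 3 against 77.6, 53.4 and 101.7 over wild type samples 1 to 3. It was lower in null in 3 of 3 pairs, with a log2 difference of -1.44. The groups overlapped by the narrow margin between null sample 3 and wild type sample 2. Probe set 1440770_at read 6.2, 57 and 12.2 over null samples 1 to 3 against 44.4, 43.2 and 8.5 over wild type samples 1 to 3. Its log2 difference was -0.31, with no order by genotype. At such signals MAS5 values vary widely between arrays, and no detection calls were used.

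Bcl2l2, which encodes BCL-W, was dim as well. Only 1 of its 4 probe sets was tested. Probe set 1423572_at read 132.3, 126.1 and 10 over null samples 1 to 3 against 80.9, 105.3 and 64.6 over wild type samples 1 to 3. The null samples held both the highest signals and the lowest, the latter in sample 3, and the log2 fold change was -0.26 (SE 0.64). Without null sample 3 it turned to 0.56 (SE 0.38). The other 3 probe sets, 1430453_a_at, 1430454_x_at and 1451029_at, lay between 3.6 and 94.3 and below the filter, and the highest signal of the last 2 was in wild type sample 3.

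Across these genes, 12 of 18 probe sets were tested and 0 passed at an adjusted p under 0.05 in limma, with 0 at an unadjusted p under 0.05. Among all 22519 tested probe sets 0 passed (0.0%) and 448 (1.99%) had an unadjusted p under 0.05. With the sample number as a block, 0 of 12 passed, against 3 (0.0133%) among all tested probe sets. In that fit 1 of 12 had an unadjusted p under 0.05, the A1 probe set 1419004_s_at, near the 5.4% of all tested probe sets. Of the 12, 8 were lower and 4 higher in null, with a median log2 fold change of -0.12, and 51.6% of all tested probe sets were lower, with a median of -0.02. The members share samples and, within a gene, transcripts, so these counts are not independent. Without the block, even the deleted gene did not pass. Egln3 differed by -3.85 log2 units, null minus wild type. Its limma p was 1.8e-04 before adjustment and 0.9996 after adjustment over the tested genes. With the block, the adjusted value in limma was 0.0014, and Egln3 passed. A probe set that did not pass without the block may therefore still differ between the genotypes.

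The partners of these proteins were described from a list of 13 genes of the BCL2 family, of which 10 were tested, with the brightest probe set of each gene. In limma 0 passed, without or with the block, and 0 had an unadjusted p under 0.05 in either fit, where 191 of 10960 genes (1.74%) did without the block and 616 (5.62%) with it. Over all genes 0 passed without the block (0.0%) and 2 with it (0.0182%). Among them 8 were lower and 2 higher in null, with a median log2 fold change of -0.17 against -0.01 over all genes, and medians of 0.44, -0.17 and -0.46 in pairs 1 to 3. The pairs thus gave no common direction. Bcl2l11, which encodes the BH3-only protein BIM, a ligand of MCL1 and A1, read 1513.2, 1628.3 and 1229 over null samples 1 to 3 against 2453.6, 2093.9 and 1351.9 over wild type samples 1 to 3. It was lower in 3 of 3 pairs, as were 13.0% of genes, with a log2 fold change of -0.40 (SE 0.34), and its groups overlapped through wild type sample 3 as for A1. Pmaip1, which encodes NOXA, a BH3-only protein that binds MCL1 and A1, read 1067.6, 982.3 and 635.5 over null samples 1 to 3 against 1274.7, 1035.1 and 923.7 over wild type samples 1 to 3, also lower in 3 of 3 pairs (-0.29, SE 0.33). Bbc3, which encodes PUMA, differed by -0.35 (SE 0.35), the effector gene Bak1 by -0.60 (SE 0.55) and the BH3-only gene Hrk by 0.50 (SE 0.42). Bcl2l1, the gene of BCL-XL, read 280, 390.5 and 397.2 over null samples 1 to 3 against 362.8, 358.7 and 346.7 over wild type samples 1 to 3, a log2 fold change of -0.02 (SE 0.30). The effector-like gene Bok differed by -0.09 (SE 0.65), and Bax was not analysed here.

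Genes that act on MCL1 protein stability showed no common shift. Of 11 listed, 10 were tested, with 4 higher, 6 lower and a median log2 fold change of -0.05, which turned to 0.11 when all probe sets of a gene were averaged. In limma 0 passed in either fit, and 0 had an unadjusted p under 0.05. Fbxw7 and Huwe1, whose products act in ubiquitin ligation that marks MCL1 for degradation, differed by 0.22 (SE 0.31) and -0.18 (SE 0.39), and Usp9x, the gene of a deubiquitinase that stabilises it, by -0.17 (SE 0.32). Skp1, a subunit of the ligase complex that FBXW7 joins, differed by -0.35 (SE 0.48). It was at 926.7 and 1064.1 on the arrays numbered 3 and at 355.6 to 588.8 on the others, so it followed the sample number more than the genotype.

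Of 15 genes that regulate transcription of Mcl1 and A1 or encode the growth factor receptors upstream, 13 were tested, with 2 higher and 11 lower in null and a median log2 fold change of -0.13. The median turned to 0.16 without null sample 3. In limma 0 passed in either fit, with 0 at an unadjusted p under 0.05 without the block and 1 with it, near the 5.62% of all genes in that fit. That gene was Csf2ra, the alpha chain of the GM-CSF receptor, a signal that sustains neutrophils. It read 1154.5, 890.7 and 188.1 over null samples 1 to 3 against 1702.9, 1101.1 and 334.3 over wild type samples 1 to 3, a log2 fold change of -0.54 (SE 0.73, and 0.22 with the block, adjusted p = 0.829 in limma). Lower in 3 of 3 pairs and lowest on the arrays numbered 3, it had the same order of arrays within each genotype as 1419004_s_at of A1. That order was not particular to Csf2ra, since Hif1a, Rela, Pmaip1 and 1448503_at of Mcl1 had it too. Cdk9, the kinase of the elongation factor P-TEFb on which short-lived transcripts such as Mcl1 depend, read 869.6, 763 and 984.3 over null samples 1 to 3 against 1049.9, 1143.8 and 1032.2 over wild type samples 1 to 3. Its groups did not overlap, as in 6.92% of genes, and the log2 fold change was -0.30 (SE 0.29, adjusted p = 0.9996 in limma). Of the NF-kB subunits, Rela differed by 0.05 (SE 0.39) and Rel by -0.22 (SE 0.50). Stat5b differed by -0.24 (SE 0.35), Csf3r, the G-CSF receptor gene, by 0.39 (SE 0.50) and Hif1a by -0.07 (SE 0.57).

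**Figure D4:**
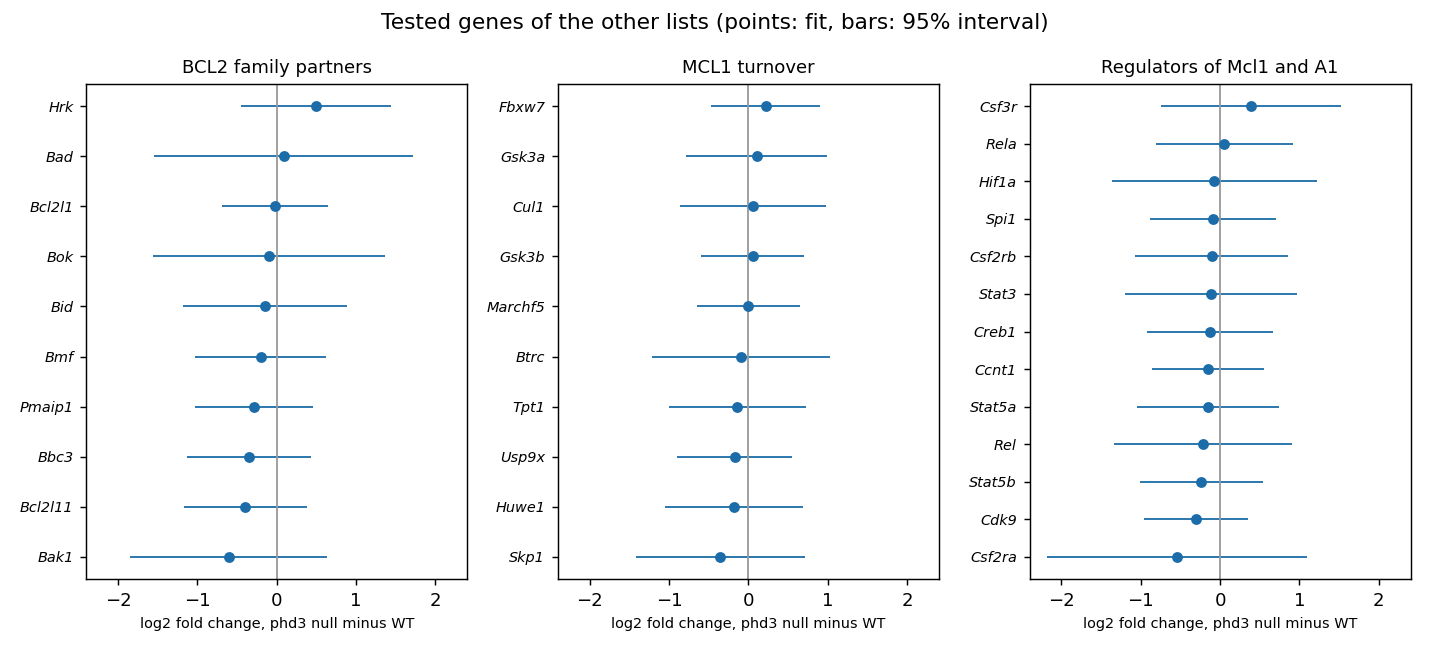
Limma log2 fold changes, null minus wild type, with 95% intervals for the tested genes of 3 lists: 10 partners in the BCL2 family, 10 genes of MCL1 turnover and 13 regulators of Mcl1 and A1. Every interval crosses 0.

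Likeness to Mcl1 and A1 was measured as the root mean square difference between log2 values centred on each gene's mean, over the 6 arrays. For 1448503_at of Mcl1, the nearest genes were Rbm25 at 0.08, Lims1 at 0.09, Ube2d2a at 0.09 and 5033404E19Rik at 0.09 log2 units, where the median gene was at 0.59. Rbm25, a splicing factor gene, read 474.4, 455.5 and 400.7 over null samples 1 to 3 against 621.4, 375.9 and 316 over wild type samples 1 to 3. Its order of arrays within each genotype was that of 1448503_at. The _x_at probe sets of Mcl1 and 1416880_at had another order. For 1419004_s_at of A1, the nearest were Riok3 at 0.18, Bach1 at 0.18, Msantd2 at 0.19 and Fam104a at 0.19, with the median gene at 0.86. Bach1, which encodes a heme-regulated transcriptional repressor, read 2610.7, 2985.3 and 1355.1 over null samples 1 to 3 against 5413.4, 3606.3 and 1948.7 over wild type samples 1 to 3. Riok3, an atypical kinase gene, read 1768.8, 1585.2 and 974.4 over null samples 1 to 3 against 3337.8, 2152.5 and 1317.4 over wild type samples 1 to 3. These genes were chosen for their likeness, so their own genotype differences are no further evidence.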

How the data were processed

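The deposited values are signal intensities on a linear scale, which the authors made with MAS5 per the submitters' processing notes. The version and any genome build are not given in the sources used here. This algorithm turns the probes of each set into 1 value, array by array, with scaling to a target, and the trimmed mean (2% cut at either end) was 100 on every array. Of 45101 probe sets, 64 controls were left out. Symbols came from GEO's platform annotation, in which 34945 probe sets had 1 symbol, 932 several and 9160 none. On a log scale the dim signals are the noisier ones, and the number of arrays limits the precision.

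Limma 3.58.1 in R 4.3.3 was run on log2(signal + 16) (eBayes with a trend, two-sided, no block), with Benjamini-Hochberg adjustment. Fold changes on this scale understate changes of dim genes. The 22519 probe sets with a mean at or above the median of 5.90 were tested. Gene lists used the brightest probe set with 1 symbol per gene, 10960 tested genes in all. Every member probe set was to be named, and from each list the genes past the threshold, otherwise up to 4 of smallest p, and those whose groups did not overlap. Other list genes were named after their values were seen. Members and lists were chosen with earlier results of these data known. The code was tested on simulated data.

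Samples are numbered 1 to 3 in both genotypes, and equal numbers share a code in the source labels. Arrays of equal number deviated together from their group means, with correlations over tested probe sets of 0.264, 0.137 and 0.435. Differences within same-numbered pairs are given for this reason, while the main fit has no block and leaves the pairing out. Unequal numbers gave -0.327 to 0.147, and phd3 null sample 2 was slightly nearer to wild type sample 1 than to its own number. A replicate block was therefore tried as an alternative, as were pseudocounts of 1 and 64, no filter, quantile normalization, no trend, array weights, 1 value per gene, and arrays left out. Promoter windows are those of RefSeq on GRCm38.p6, matched for 6 of 6 genes and aligned with Biopython 1.88.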

Additional observations from a re-analysis of the deposited data

How the results depend on the processing

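No member probe set passed under any of 15 alternatives, the replicate block among them. Of the 12 tested, 3 kept their sign throughout, namely 1416880_at of Mcl1, 1419004_s_at of A1 and 1422938_at of Bcl2. For 1419004_s_at the log2 fold change ran from -0.64 with quantile normalization to -0.94 without pair 3, and leaving out 1 array gave -1.20 to -0.24 (adjusted p from 0.868 to 1.0). The other probe sets turned under some settings, and the cause was not tested. Quantile normalization gave 0.084 for 1437527_x_at and 0.10 for 1456381_x_at. Array quality weights gave 0.073 and 0.099 for these, 0.0028 for 1416881_at and 0.13 for 1423572_at. Without pair 3 the values were -0.040 for 1448503_at, 0.057 for 1437527_x_at, 0.047 for 1456381_x_at, 0.061 for 1437913_at and 0.42 for 1423572_at, while 2 Bcl2 probe sets kept their sign and grew, 1437122_at to -1.46 and 1457687_at to -0.71. With 1 array left out, Mcl1 ran from -0.16 to 0.36 (1448503_at), -0.17 to 0.029 (1437527_x_at), -0.054 to 0.14 (1456243_x_at), -0.13 to 0.12 (1456381_x_at), -0.41 to 0.21 (1416881_at) and 0.051 to 0.24 (1416880_at). A1 1437913_at ran from -0.55 to 0.11, Bcl2 from -0.57 to 0.069 (1457687_at), -1.09 to 0.013 (1437122_at) and 0.29 to 1.03 (1422938_at), and Bcl2l2 1423572_at from -0.69 to 0.56. Among all probe sets, 3 passed with the replicate block, 1 without pair 3 and 0 to 2 with 1 array left out. List medians moved too. For MCL1 turnover the median was 0.11 with the mean of each gene's probe sets, 0.11 without pair 3 and -0.089 to 0.036 with 1 array left out. For the regulators it was -0.072 with quantile normalization, -0.090 with the mean of probe sets, -0.24 without pair 3 and -0.20 to 0.16 with 1 array left out, the highest without phd3 null sample 3. For the BCL2 family partners it stayed below 0, at -0.42 to -0.08 with 1 array left out.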
